A study of Enchytraeus albidus with 42 samples.

Results

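The comparison described here sets the potworm Enchytraeus albidus in soil with atrazine at its EC50 against the same worms in soil with the solvent alone. It was made of the 3 arrays titled as atrazine EC50 and the 3 arrays titled as solvent control, 6 of the 42 arrays of the series. The study asked how dimethoate, atrazine and carbendazim alter transcription at 4 concentrations each, set by their effect on reproduction. Each array held RNA of the pooled worms of 1 vessel, so a replicate is a vessel and not an animal.

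The atrazine EC50 worms were adults with a developed clitellum that spent 2 days in a natural soil with 3 mg of atrazine per kg, the concentration meant to cut reproduction by 50%, with the herbicide brought in by acetone. The solvent control worms were adults of the same kind that spent 2 days in soil treated with acetone and no herbicide. The other atrazine groups had 0.2 mg per kg (EC10), 0.5 mg per kg (EC20) and 50 mg per kg (EC90). Carbendazim EC50 shared the solvent control, whereas dimethoate EC50 had the water control, soil with neither pesticide nor acetone. The RNA came from whole worms. A lower signal from fewer cells of a type and one from less RNA per cell cannot be told apart in such samples. Of 16 transcripts that mark body wall muscle, 15 were well above background in all 3 EC50 arrays and 15 in all 3 solvent arrays.

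Atrazine is a triazine herbicide that blocks electron transport in photosystem II of plants. Worms lack that target, and enchytraeids are used in soil testing because they feed on decaying matter and litter and take up chemicals through the skin and the gut. The transcripts named below belong to processes that all such worms use, namely respiration in mitochondria, contraction of the body wall muscle, protein synthesis and folding, and oxygen transport by a giant haemoglobin dissolved in the blood.

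All values are log2 signals of a transcript on an array after the arrays were brought to a common median, and a difference of 1 is a doubling. The arrays carried 1035 transcripts with 14 to 15 spots of 1 probe each. A transcript was well above background in 84.0%, 85.2% and 74.9% of cases on EC50 replicates 1, 2 and 3, and in 85.1%, 81.9% and 82.6% of cases on solvent replicates 1, 2 and 3. EC50 replicates 1 and 3 lay on the same slide as solvent replicate 3, and EC50 replicate 2 lay on a slide of its own among the 6 arrays. The water control arrays lay on slides that held none of the 6 and were scanned on another day. Values against the water control therefore also carry any difference between slides and days. Elsewhere in the series, 2 arrays of 1 scan, both of dimethoate, stood apart from the other arrays of their groups (SD of the deviations 0.891 and 0.845 log2). The 6 arrays compared here had SDs between 0.361 and 0.566 log2. Those 2 arrays entered the shared estimate of the spread. Names were available for 225 transcripts and not for the other 810. The named ones had been selected by the study on these same arrays, so counts among them are not independent evidence of a direction.

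No transcript was differentially expressed between atrazine EC50 and the solvent control. Of 1035 transcripts, 0 (0%) had a Benjamini-Hochberg adjusted p under 0.05 in limma, and the smallest adjusted p was 0.338. Without adjustment, 104 transcripts (10.0%) had a limma p under 0.05, 57 of them higher at EC50 (5.51%) and 47 lower (4.54%). The 2 sample t-test that the methods describe gave 36 transcripts (3.48%) at an unadjusted p under 0.05, 14 higher and 22 lower, and 0 after adjustment. All 3 EC50 arrays lay above all 3 solvent arrays in 33 transcripts (3.19%) and below them in 59 (5.70%). Both conditions, an unadjusted limma p under 0.05 and no overlap, held for 41 transcripts. The median difference over all transcripts was 0.00. For a transcript with the median standard error of 0.33, a difference had to reach 0.68 for an unadjusted p of 0.05, and transcripts with a smaller error passed with less.

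The direction of a difference went with the signal of the transcript. When transcripts were divided by mean signal into 5 classes of 207, the median difference was 0.31 in the dimmest class, then 0.06, 0.04 and -0.16, and it was -0.32 in the brightest. Of the 57 transcripts higher at EC50, 16 were in the dimmest class and 0 in the brightest, while of the 47 lower ones 1 was in the dimmest and 16 in the brightest. The 3 EC50 arrays did not share the pattern in the dimmest class, where the medians against the mean of the solvent arrays were 0.18, -0.35 and 0.99 for replicates 1, 2 and 3. In the brightest class all 3 were below the solvent mean, by medians of -0.32, -0.22 and -0.29. Solvent replicate 3 was at -0.20 there against the mean of solvent replicates 1 and 2. Against the same solvent control, EC10 had medians of -0.17 in the dimmest class and -0.10 in the brightest. EC20 had 0.23 and -0.22, EC90 had 0.29 and -0.27, and carbendazim EC50 had 0.08 and -0.22. Against the water control, atrazine EC50 had 0.31 and -0.11. Quantile normalization, which gives every array the same distribution, left medians of 0.05 in the dimmest class and 0.00 in the brightest, and normexp background correction gave -0.18 and -0.12. Quantile normalization gave 96 transcripts (9.28%) at an unadjusted p under 0.05. Scaling by the 75th percentile moved the median of all transcripts to 0.29, and 127 of its 137 transcripts (92.7%) were higher at EC50, against 54.8% with the median shift. The part of signal strength in any single difference below was not tested.

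**Figure D1:**
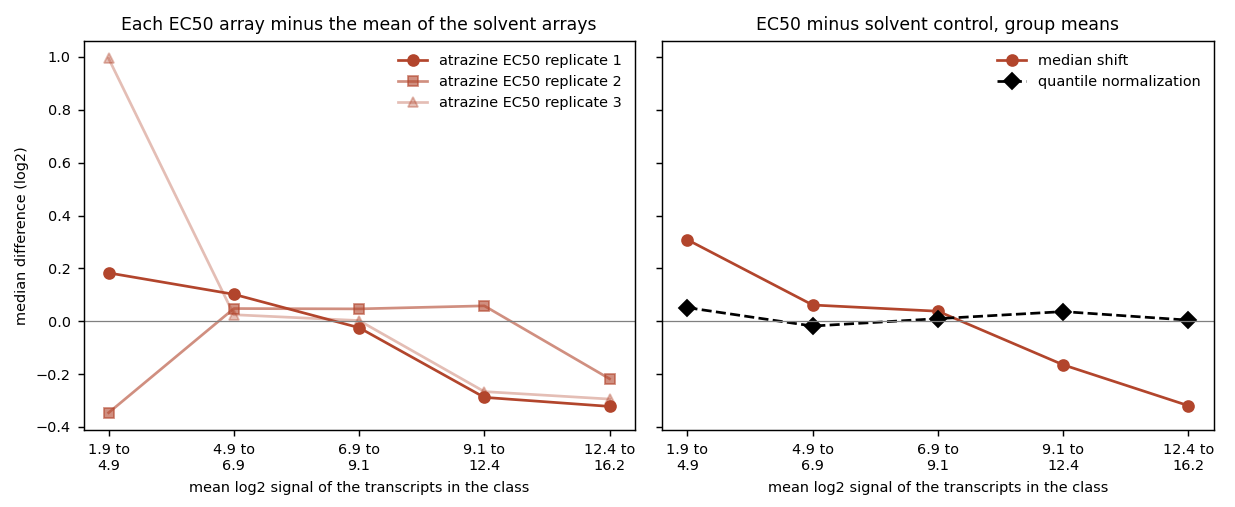
Median log2 difference from the solvent control (vertical axis) for 5 classes of 207 transcripts ordered by mean log2 signal (horizontal axis). On the left each line is 1 EC50 array against the mean of the solvent arrays, with replicate 3 at 0.99 and replicate 2 at -0.35 in the dimmest class. On the right the group difference runs from 0.31 to -0.32 with the median shift and from 0.05 to 0.00 after quantile normalization.

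Transcripts of mitochondrial respiration differed in both directions. The smallest p belonged to EAC00356, subunit VIa of cytochrome c oxidase, the enzyme that passes electrons to oxygen. EAC00356 had 6.55, 5.73 and 6.27 log2 on the EC50 arrays, against 5.43, 5.06 and 5.56 on the solvent arrays. Every EC50 array was above every solvent array, with replicate 2 the nearest to them. The difference was 0.83 (SE 0.21, 95% interval 0.40 to 1.27), a 1.78-fold higher signal, with an limma adjusted p of 0.338. It was 0.65 after quantile normalization, 0.31 after normexp background correction and 0.85 within the shared slide. Against the water control it was 0.28. EAC00068, listed as another form of subunit VIa, differed by 0.01.

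EAC00388, the ESSS subunit of NADH:ubiquinone oxidoreductase (complex I, the entry point of electrons from NADH), was lower at EC50. It had 10.45, 10.46 and 10.21 log2 on the EC50 arrays and 10.68, 10.76 and 10.93 log2 on the solvent arrays. The groups did not overlap, and the spread within each was small. The difference was -0.41 (SE 0.14), with an limma adjusted p of 0.456, and it was -0.22 after quantile normalization. EAC00204, another complex I transcript, differed the other way, by 0.74 (SE 0.32), and by 0.22 against the water control. Of the 14 electron transport transcripts, 2 were higher and 1 lower at an unadjusted p under 0.05, where 5.51% and 4.54% of all transcripts were, and their median difference was -0.03. Transcripts of cytochrome oxidase subunit I, the catalytic core that the mitochondrial genome encodes in animals, also took both signs, with 0.56 for EAC00106, 0.53 for EAC00307 and -0.62 for EAC01043. None of these 3 had an unadjusted p under 0.05.

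ATP synthase, the enzyme that makes ATP from the proton gradient, had 2 transcripts among the higher ones. Over all transcripts 5.51% were higher at an unadjusted p under 0.05. The gamma subunit EAC00103, part of the rotating shaft, had 5.79, 5.11 and 5.94 log2 at EC50 and 4.85, 4.74 and 5.00 log2 in the solvent control. Again all EC50 arrays were above all solvent arrays, replicate 2 by the least. Its difference was 0.75 (SE 0.27, limma adjusted p = 0.456). The alpha subunit EAC00511 differed by 0.71 (SE 0.30), with overlapping groups. Both differences were smaller after normexp background correction, 0.15 and 0.16, and against the water control, 0.33 and 0.28. The 2 transcripts of the e chain, EAC00665 and EAC00748, were at -0.51 and -0.47 without passing the unadjusted threshold. Lombricine kinase (EAC00260), the annelid counterpart of creatine kinase that stores phosphate for quick ATP supply, had 15.03, 14.94 and 14.63 log2 at EC50 against 14.31, 14.40 and 14.67 log2 in the solvent control. That difference of 0.41 (SE 0.30) was within the error. The 7 members of the ATP synthase and lombricine kinase list had a median of 0.04, and of 0.40 after quantile normalization.

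**Figure D2:**
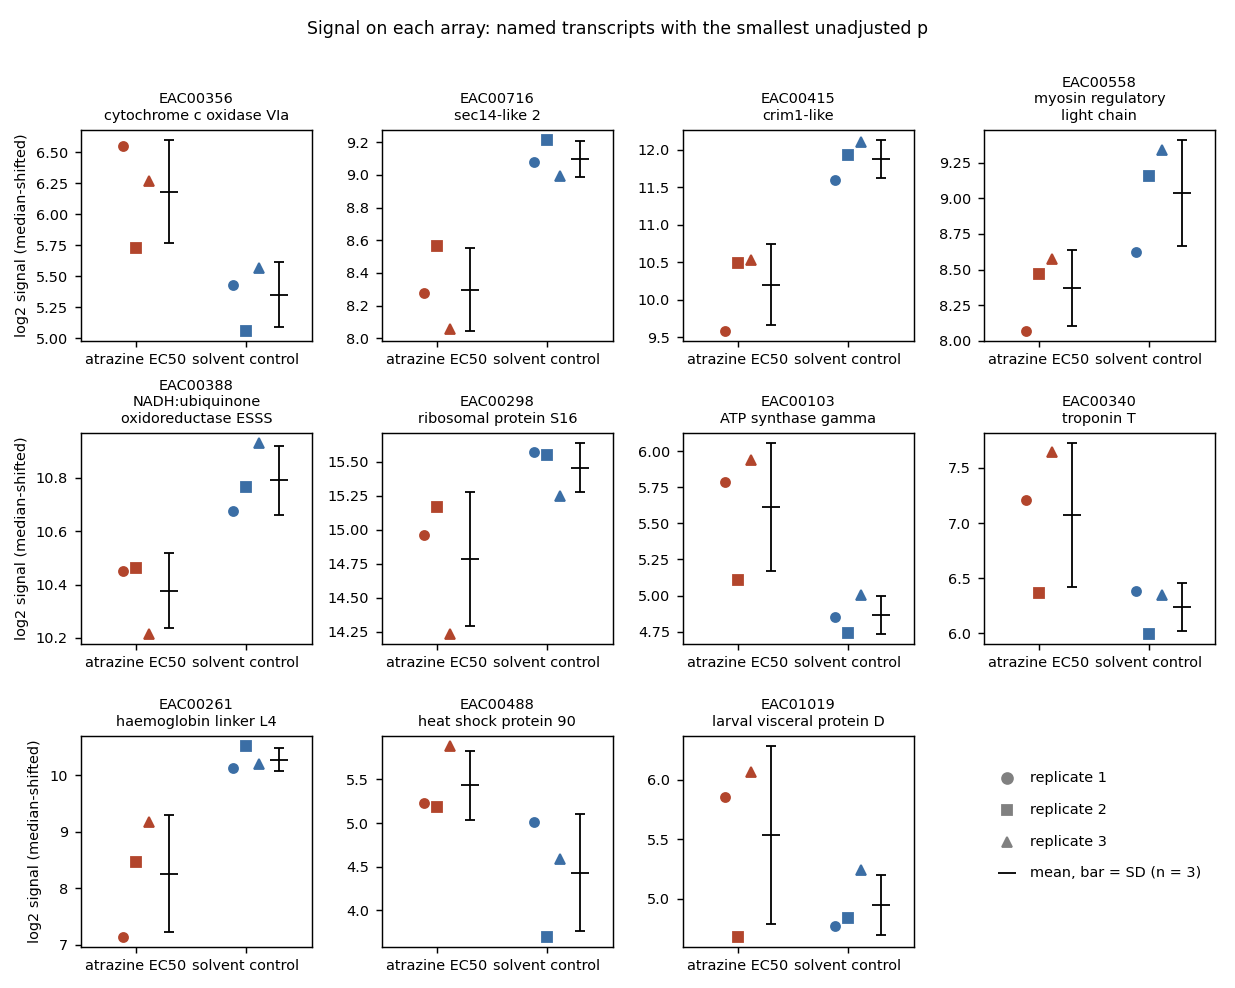
Log2 signal (vertical axis, one scale per panel) of 11 named transcripts with the smallest unadjusted p, on the 3 atrazine EC50 arrays and the 3 solvent control arrays, with the mean and SD beside the points. EC50 replicate 2 (square) is the EC50 array nearest to the solvent arrays for EAC00356, EAC00103, EAC00340, EAC01019, EAC00488, EAC00716, EAC00298 and EAC00388. Replicate 3 (triangle) is the nearest for EAC00415, EAC00558 and EAC00261. The groups overlap only in EAC00340 and EAC01019.

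Among stress proteins, heat shock protein 90 (EAC00488), a chaperone that folds kinases and hormone receptors, showed the widest difference. It had 5.23, 5.18 and 5.88 log2 at EC50 and 5.01, 3.69 and 4.59 log2 in the solvent control. The EC50 arrays were all higher, but the solvent arrays spread over more than 1 log2 and solvent replicate 2 was the lowest. The difference was 1.00 (SE 0.37, 95% interval 0.25 to 1.75, 2.00-fold), with an limma adjusted p of 0.456. It was well above background on 3 EC50 arrays and 2 solvent arrays. With the outlier spots left in the linear mean the difference was -0.11. Heat shock cognate 71 (EAC00316), the constitutive partner chaperone, differed by 0.37 and the mitochondrial 10 kDa heat shock protein (EAC00276) by -0.23. Against the water control EAC00276 was at 0.05. The 8 heat shock proteins and chaperonins had a median of 0.36, or -0.04 after normexp background correction. At an unadjusted p under 0.05, 1 of 8 was higher and 0 lower, where 5.51% and 4.54% of all transcripts were. The ubiquitin transcript EAC00306, which tags proteins for breakdown, differed by -0.24 (SE 0.31).

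The clearest separation among lipid carriers was in sec14-like 2 (EAC00716), whose relatives bind lipids such as vitamin E and phosphatidylinositol in other animals. EAC00716 had 8.28, 8.56 and 8.06 log2 at EC50 against 9.08, 9.21 and 8.99 log2 in the solvent control. All 3 EC50 arrays were below all 3 solvent arrays. The difference was -0.80 (SE 0.26, 95% interval -1.33 to -0.27), a 1.74-fold lower signal, with an limma adjusted p of 0.456. It was -0.77 after quantile normalization and -0.83 within the shared slide, which leaves out EC50 replicate 2 and solvent replicates 1 and 2. Of the other 5 transcripts for lipid, steroid and retinoid proteins, 0 had an unadjusted p under 0.05, where 10.0% of all transcripts had. The short chain dehydrogenase EAC01022, of a family of NAD(P)-dependent oxidoreductases, differed by -0.36, and retinol dehydrogenase 3 (EAC00387) was not well above background on any of the 6 arrays. The list's median was -0.13.

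Larval visceral protein D (EAC01019), a maltase-like enzyme of the gut in Drosophila, had 5.86, 4.68 and 6.07 log2 at EC50 and 4.77, 4.84 and 5.24 log2 in the solvent control. Replicates 1 and 3 were above every solvent array and replicate 2 was below them all. The difference over the 3 replicates was 0.59 (SE 0.22, limma adjusted p = 0.456). Of the 5 carbohydrate enzymes, only EAC01019 and glyceraldehyde-3-phosphate dehydrogenase (EAC00903), a step of glycolysis that differed by 0.29, were well above background on any array. The glucan endo-beta-glucosidase EAC00265 and transketolase EAC00207 were not.

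Transcripts of the contractile apparatus differed in both directions. Troponin T (EAC00340), which anchors the calcium switch of the thin filament, had 7.21, 6.37 and 7.65 log2 at EC50 and 6.39, 5.99 and 6.35 log2 in the solvent control. EC50 replicate 2 overlapped with the solvent arrays and the others did not. The difference was 0.83 (SE 0.30, limma adjusted p = 0.456), and 0.13 against the water control. The myosin regulatory light chain EAC00558, which tunes the motor's activity, had 8.07, 8.47 and 8.58 log2 at EC50 against 8.62, 9.16 and 9.34 log2 in the solvent control. It was lower on all EC50 arrays, by -0.67 (SE 0.23), and a further regulatory light chain, EAC00259, differed by -0.64, or by 0.04 against the water control. A myosin heavy chain, EAC00108, the motor itself, differed by 0.68 (SE 0.32) and the calponin or transgelin transcript EAC00494, of a family that binds actin, by -0.87 (SE 0.40). Of 10 myosins, 2 were higher and 1 lower at an unadjusted p under 0.05, with a median of 0.31. Of 12 tropomyosin, troponin and calponin transcripts, 3 were higher and 1 lower, with a median of 0.37, or 0.08 against the water control. Over all transcripts these shares were 5.51% higher and 4.54% lower. The 5 sarcoplasmic calcium-binding proteins, which buffer calcium in invertebrate muscle, had a median of 0.48 and none with an unadjusted p under 0.05.

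Actin and its binding proteins made up the largest list, with 26 transcripts and a median of 0.06. Thymosin (EAC00210), which holds actin monomers out of filaments, had 0 overlap between groups and differed by -0.72 (SE 0.29). The actin EAC00223 was the only other member past the unadjusted threshold, at -0.42. So 2 of 26 were lower and 0 higher, where 4.54% and 5.51% of all transcripts were. Tubulin beta-2b (EAC00485), a building block of microtubules, differed by 0.62 (SE 0.27) and the tubulin alpha chain EAC00175 by 0.61 (SE 0.40). Of the 4 intermediate filament transcripts, which encode the ropes that give cells tensile strength, EAC00363 at 0.74 and EAC00181 at 0.71 had an unadjusted p under 0.05. Over all transcripts 5.51% were higher at that threshold. EAC00371 was at 0.46 without passing, and EAC00999 was not well above background on any of the 6 arrays. Against the water control EAC00363, EAC00181 and EAC00371 were at 0.11, 0.05 and 0.03. The median difference of the 4 between solvent and water control was -0.65.

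The protein synthesis transcripts lay near the background of all transcripts. Ribosomal protein S16 (EAC00298), of the small subunit, had 14.96, 15.17 and 14.23 log2 at EC50 and 15.57, 15.55 and 15.25 log2 in the solvent control. The EC50 arrays were all lower, by -0.67 on average (SE 0.23, limma adjusted p = 0.456) and by -0.39 after quantile normalization. A further S16 transcript, EAC00200, differed by -0.05. Ribosomal protein L15 (EAC00476), of the large subunit, differed by 0.64 (SE 0.26) and L3 (EAC00208) by 0.63, or by -0.10 against the water control. Of the 20 ribosomal transcripts, 2 were higher and 1 lower at an unadjusted p under 0.05, where 5.51% and 4.54% of all transcripts were. Their median was 0.05. The initiation factor EAC01079 differed by -0.41 and the 5 translation factors had a median of -0.21.

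Haemoglobin and cysteine-rich proteins gave wide differences with wide errors. The linker L4 (EAC00261), a chain that holds the subunits of the giant haemoglobin together, had 7.13, 8.47 and 9.17 log2 at EC50 against 10.12, 10.51 and 10.19 log2 in the solvent control. The groups did not overlap, and the EC50 arrays spread over more than 1 log2 while the solvent arrays were close together. The difference was -2.02 (SE 0.73, 95% interval -3.51 to -0.53), a 4.05-fold lower signal, with an limma adjusted p of 0.456. The globin chain EAC00421, which carries the haem, differed by -0.13 (SE 0.22). A transcript like crim1 (EAC00415), a cysteine-rich membrane protein that binds bone morphogenetic proteins in vertebrates, had 9.58, 10.49 and 10.54 log2 at EC50 and 11.60, 11.93 and 12.10 log2 in the solvent control. It was lower on every EC50 array, by -1.67 (SE 0.55). The transcripts EAC00042 and EAC00472 carry other names in use for crim1 and had the opposite sign, with 0.77 (past the unadjusted threshold) and 0.67 (not past it).

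In the nucleus, the licensing factor mcm7 (EAC00212), part of the helicase that opens DNA for replication, differed by 0.55 (SE 0.30) with no overlap between groups, and a histone (EAC00627) by -0.29 (SE 0.19). None of the 12 nuclear transcripts had an unadjusted p under 0.05, where 10.0% of all transcripts had. The phosphatase EAC00664, which acts with integrin-linked kinase in mammals, differed by -0.42 (SE 0.24). The amino acid transporter EAC00636 differed by -0.08 (SE 0.18). The lectin EAC00550, of a family that binds sugars on microbes, differed by -0.70 (SE 0.54), and none of the 8 lectins, lysozyme and proteases had an unadjusted p under 0.05.

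The 14 transcripts named mads flc-like protein 2, after a plant transcription factor, took both signs. EAC01066 had 8.30, 12.37 and 11.04 log2 at EC50 and 13.60, 12.34 and 12.80 log2 in the solvent control. EC50 replicate 1 was lower than all the others and replicate 2 lay among the solvent arrays. EAC01049 followed with 8.97, 13.14 and 11.76 log2 at EC50 against 14.28, 12.84 and 13.40 log2 in the solvent control. Their differences were -2.34 (SE 1.03) and -2.22 (SE 1.04). EAC01087 was not well above background on any of the 6 arrays, and EAC01039 differed by 1.13 with signals above background on all of them.

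**Figure D3:**
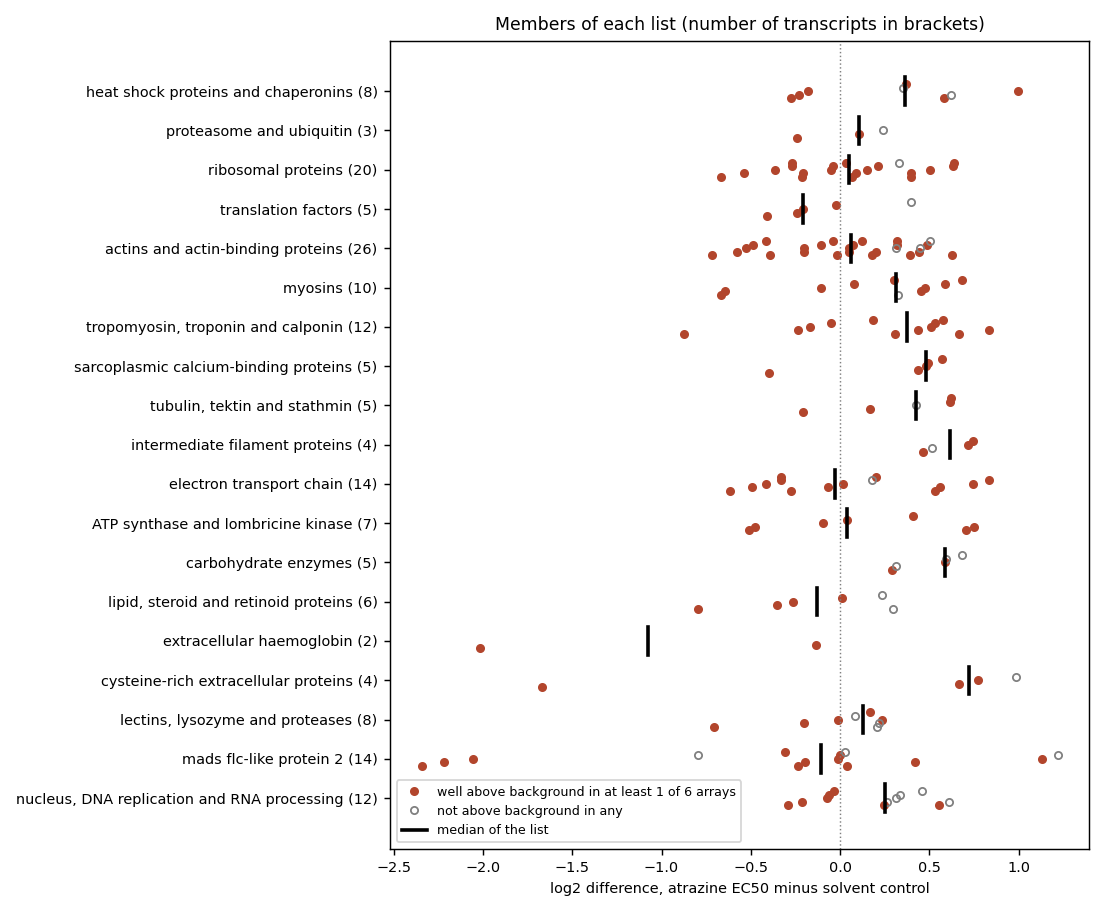
Log2 difference between atrazine EC50 and solvent control (horizontal axis) of each member of 19 lists (rows). Filled points were well above background on at least 1 of the 6 arrays, open points on none, and the bar is the list's median. The intermediate filament list lies wholly to the right with a median of 0.62, the haemoglobin list has a median of -1.08 from 2 members, and the median of all transcripts (dotted line) is 0.00.

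Across the lists, 3 medians lay more than 0.5 from 0, those of intermediate filaments at 0.62, carbohydrate enzymes at 0.59 and cysteine-rich proteins at 0.72, besides the haemoglobin pair at -1.08. After quantile normalization these were 0.47, 0.14, 0.40 and -1.09, and with normexp background correction 0.24, -0.12, -0.04 and -0.90. Against the water control they were 0.04, 0.20, 0.74 and -0.47. The lists hold 2 to 5 members each, and 3 of the 5 carbohydrate enzymes had no signal above background.

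Among transcripts with no name, Ealb_Met_P2_B7_SP6_2090281 had 7.75, 8.07 and 7.10 log2 at EC50 and 9.06, 8.74 and 7.89 log2 in the solvent control. EC50 replicate 2 lay above solvent replicate 3, replicates 1 and 3 lay below all solvent arrays, and the difference was -0.92 (SE 0.24), or -0.46 within the shared slide. Ealb_Met_P5_E5_SP6_2090452 had 8.70, 8.12 and 8.11 log2 at EC50 against 6.78, 5.36 and 7.18 log2 in the solvent control. It was higher on every EC50 array, by 1.87 (SE 0.56, 3.65-fold). Ealb_Met_P4_C9_SP6_2090101 had 7.15, 5.95 and 8.38 log2 at EC50 and 6.15, 5.64 and 5.91 log2 in the solvent control, and Contig61 had 6.94, 5.93 and 7.34 log2 at EC50 against 6.16, 5.76 and 5.67 log2. In both, EC50 replicate 2 lay within the range of the solvent arrays while replicates 1 and 3 were above it, and the differences were 1.26 (SE 0.40) and 0.87 (SE 0.29).

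EC50 replicate 2 resembled the solvent arrays over the whole array as well. Over all 1035 transcripts, its signals correlated with those of solvent replicates 1, 2 and 3 at 0.991, 0.983 and 0.991, and with those of EC50 replicates 1 and 3 at 0.979 and 0.974. Transcripts are not independent replicates, so these values describe the arrays only. Replicate 2 lay more than 1 log2 from the solvent mean in 48 transcripts, against 91 for replicate 1 and 243 for replicate 3. Replicate 3 had only 74.9% of transcripts well above background. Its median difference from the solvent mean was 0.99 in the dimmest class of 207 transcripts, against 0.18 for replicate 1 and -0.35 for replicate 2. How many of the 243 were dim transcripts was not tested, so these counts do not rank the arrays by response. Without replicate 2, 7 transcripts (0.676%) had an limma adjusted p under 0.05. The lowest belonged to larval visceral protein D (EAC01019) with a difference of 1.01 (adjusted p = 0.00646), and cytochrome c oxidase subunit VIa (EAC00356) had 1.06 (adjusted p = 0.0153). The other 5 had no name and included Ealb_Met_P4_C9_SP6_2090101 at 1.86, Contig61 at 1.28 and Ealb_Met_P2_B7_SP6_2090281 at -1.14. A replicate left out because it lies near the control can widen the difference by that choice alone, so these values are a description and no test of atrazine. Without the 2 deviating dimethoate arrays, which are in neither group, the differences stayed as they were, 209 transcripts (20.2%) had an unadjusted p under 0.05, and the smallest adjusted p was 0.0514.

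The direct contrasts with the other atrazine concentrations share no control arrays. EC50 differed from EC10 in 180 transcripts (17.4%) at an unadjusted limma p under 0.05, from EC20 in 48 (4.64%) and from EC90 in 61 (5.89%). After adjustment 0 transcripts passed in any of the 3 contrasts, with a smallest adjusted p of 0.0518 against EC10, 0.872 against EC20 and 0.826 against EC90. The lowest of these was EAC00356, whose EC50 signal was 1.00 above that at EC10. Sec14-like 2 (EAC00716) differed from EC10 by -1.04 (limma adjusted p = 0.0584). Without the 2 deviating arrays, 87 transcripts (8.41%) passed in EC50 against EC10 and 0 in EC50 against EC20 or EC90. EC10 replicates 1 and 2 lay on a slide without EC50 arrays, and EC10 replicate 3 lay on that of EC50 replicate 2. A fit with the slide as a fixed block gave 47 transcripts for EC50 against EC10 at an unadjusted limma p under 0.05. In that fit 0 passed after adjustment (smallest adjusted p = 0.773). What concentration and slide each add was not tested.

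From EC10 to EC90, the differences from the shared solvent control were -0.17, 0.36, 0.83 and 0.66 for cytochrome c oxidase subunit VIa (EAC00356) and 0.30, 0.78, 1.00 and 1.14 for heat shock protein 90 (EAC00488). For sec14-like 2 (EAC00716) they were 0.25, -0.18, -0.80 and -0.18, so that EC50 was the lowest of the 4. Haemoglobin linker L4 (EAC00261) was at -0.22, -1.70, -2.02 and -0.39. In these last 2 transcripts single arrays at EC20 or EC90 lay far from the others of their group, as the plot of signals by concentration shows.

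**Figure D4:**
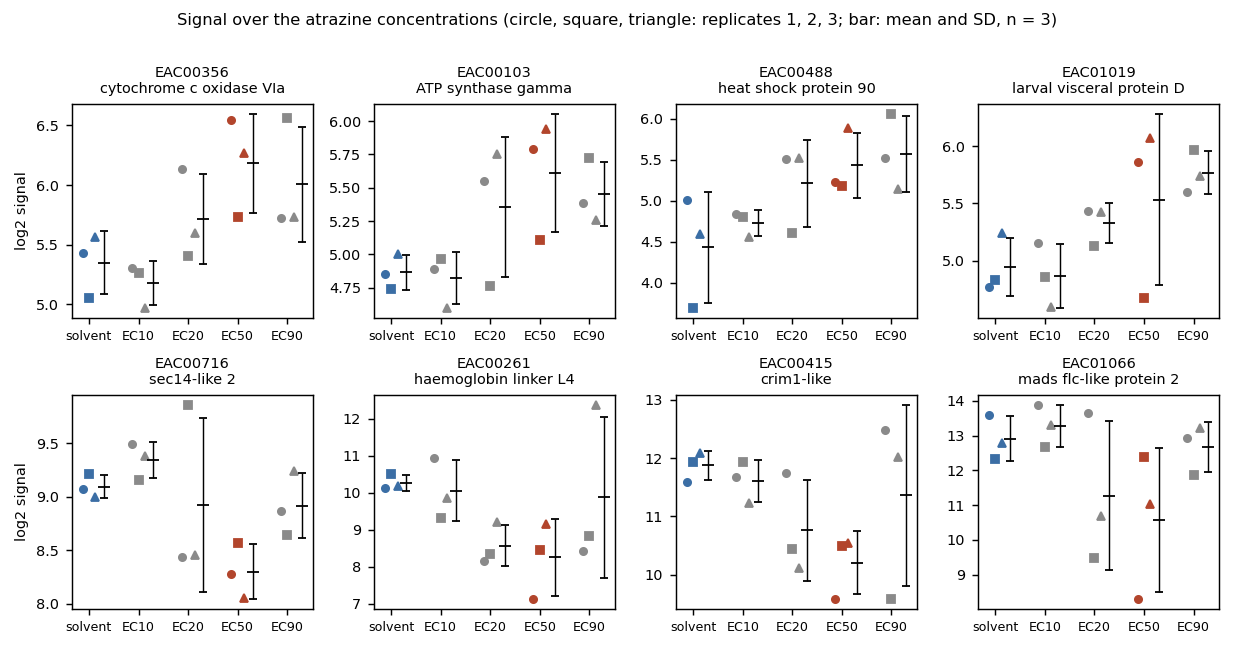
Log2 signal (vertical axis, one scale per panel) of 8 named transcripts in the solvent control and at the 4 atrazine concentrations, low to high, with each replicate and the mean and SD of 3 arrays. EAC00488 has means of 5.43 at EC50 and 4.43 in the solvent control, and EAC01066 has an SD of 2.08 at EC50, the widest among the EC50 groups shown.

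Against carbendazim at its EC50, 34 transcripts (3.29%) had an unadjusted limma p under 0.05 and 0 passed after adjustment (smallest adjusted p = 0.362). Against the solvent control they share, EAC00356 was at 0.83 with atrazine and 0.79 with carbendazim, and EAC00716 at -0.80 and -0.24.

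The water control gave other values for many of the same transcripts. Its arrays lay on other slides and were scanned on another day than the EC50 and solvent arrays. What control, slide and day each add to these values cannot be told apart. Between solvent and water control, 19 of 1035 transcripts had a limma adjusted p under 0.05. With the slide as a fixed block 0 did. No slide held arrays of both controls, so that fit linked them only through dimethoate EC10, a group with a deviating array. That 0 therefore cannot tell slide from control. Of the 170 listed transcripts, 60 had the opposite sign against the water control. Crim1 (EAC00415) differed by -1.67 between atrazine EC50 and the solvent control and by 0.32 between atrazine EC50 and the water control, and the solvent control itself was 1.99 above the water control. For EAC01066 these were -2.34, 2.76 and 5.10, and for cytochrome c oxidase subunit VIa (EAC00356) 0.83, 0.28 and -0.56. For heat shock protein 90 (EAC00488) they were 1.00, 0.18 and -0.82. For haemoglobin linker L4 (EAC00261) the value against water was -1.27, and for larval visceral protein D (EAC01019) it was 0.61, close to that against the solvent.

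The effect of atrazine EC50 against its solvent control was also set against the effect of dimethoate EC50 against its water control in an interaction contrast. It was lower for atrazine in 15 transcripts (1.45%) and higher in 0, with limma adjusted p values between 0.000568 and 0.0284. In these 15 the atrazine differences ran from -2.98 to -0.50 and the dimethoate differences from 1.32 to 6.32. Only 4 had a name, crim1 (EAC00415) and the 3 mads flc-like transcripts EAC01066, EAC01049 and EAC01116. EAC01066 had means of 10.57 log2 at atrazine EC50, 12.91 in the solvent control, 12.83 at dimethoate EC50 and 7.82 in the water control. The unnamed Ealb_Pest_P6_H1_SP6_2092020 had nearly the same signals, with means of 10.56, 12.91, 12.81 and 7.83. Several of the 15 followed each other in this way, and whether they are separate signals was not tested. The SD of the water control was 2.09 in EAC01066, 3.56 in Ealb_Met_P7_G8_T7_2175288 and 0.47 in EAC00415. The solvent control was above the water control in all 15, by 0.96 to 6.62, and atrazine EC50 was above the water control in 14 of 15. Pesticide and vehicle go together in this contrast, and what each adds cannot be told apart.

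**Figure D5:**
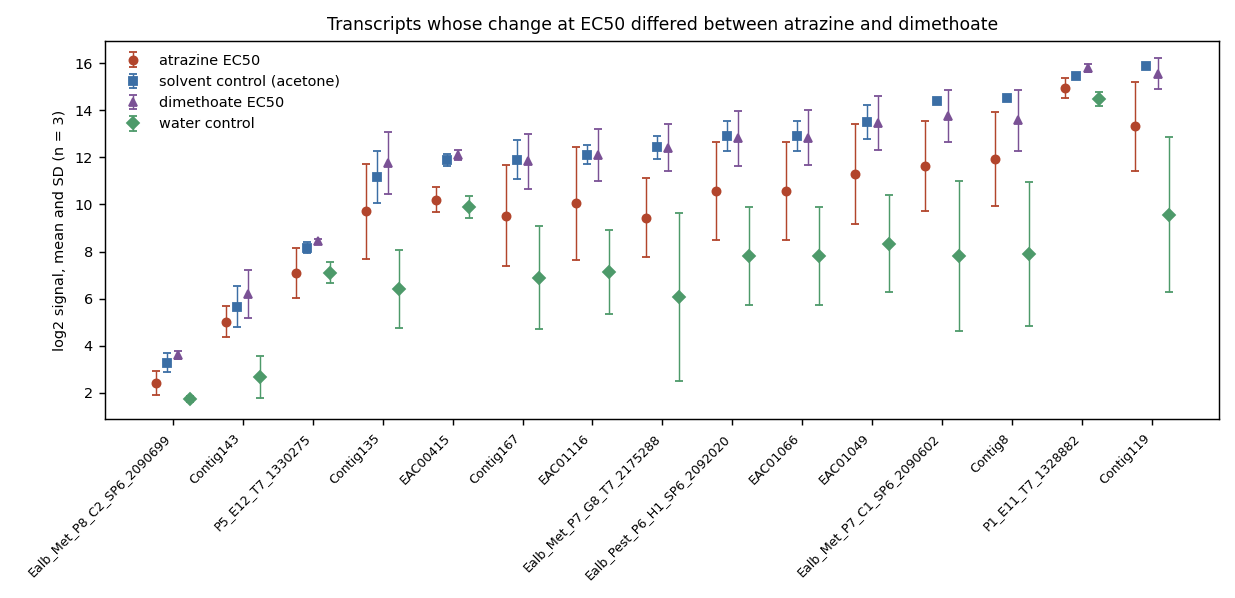
Mean log2 signal with SD of 3 arrays (vertical axis) in atrazine EC50, its solvent control, dimethoate EC50 and its water control for the 15 transcripts of the interaction contrast (horizontal axis). The water control mean is the lowest of the 4 groups in 14 of them, and in P5_E12_T7_1330275 atrazine EC50 is lowest by 0.01.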

How the data were processed

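Per the file headers, the deposited intensities of the 42 single-colour Agilent arrays had been read by the authors with Feature Extraction (10.5.1.1), background-subtracted and detrended within each array, and not normalized between arrays. Control and outlier spots were left out, spots averaged per transcript on the linear scale, log2 transformed, and each array shifted by its median difference from the median array. One limma 3.58.1 model (R 4.3.3, data.table version 1.17.8) with 14 group means was fitted to 42 arrays (28 residual and 3.94 prior degrees of freedom), and p values were adjusted by the Benjamini-Hochberg method over the 1035 transcripts in each contrast. The linear mean with outlier spots kept, scaling by the 75th percentile, quantile normalization, normexp with an offset of 50, the exclusion of dim transcripts, slide, scanning day and replicate blocks, limma trend, the water control and single arrays left out were alternatives. A shift to the median profile of all arrays, and the removal of the deviating scan together with either EC50 replicate 2 or a slide block, were added after seeing the data. Tables and figures were made in Python 3.11.15 with pandas 2.3.3, numpy 2.4.6 and matplotlib 3.10.9, and the fit was tested on simulated data.

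Names come from the study's supplementary transcript list, whose ratios, without those of atrazine EC50, were matched to the arrays for 225 transcripts. Members and lists were chosen with earlier results of these data known. Named are the transcripts past the adjusted threshold, also without EC50 replicate 2 or the deviating scan, the 12 with a name and 6 without one that have the smallest p, those the study discusses for atrazine, and the 2 widest differences in each list. The rule gave 54 transcripts. For 11 of them no difference is given, because of signals not well above background or saturated in all solvent arrays. Other list members are named as examples, chosen after their values were seen. No sequence was available here, so none is printed. Precision is limited by the 3 arrays in a group. The limma p values of the main fit rest on the spread between arrays of the same group, pooled over all groups. The arrays of both groups compared here were split between slides and scans. Some other groups in the pool, among them carbendazim EC50 and dimethoate EC50, held arrays of the same scan only. The pooled spread therefore covers differences between vessels, and those between slides and scans only in part.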

Additional observations from a re-analysis of the deposited data

Results flagged for a closer look

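The effect at EC50 differed between atrazine and dimethoate in 15 transcripts by the test of the interaction itself. The 4 with a name were crim1 (EAC00415), with a difference between the effects of -3.88 log2, and the mads flc-like transcripts EAC01066 at -7.35, EAC01049 at -7.34 and EAC01116 at -7.02. For EAC00415 the effects themselves were -1.67 for atrazine and 2.21 for dimethoate (limma adjusted p of their difference = 0.00393). Several of the 15 had nearly the same signals on every array, so the count need not stand for 15 separate signals. Pesticide and vehicle cannot be told apart in this contrast.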

How the results depend on the processing

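Without adjustment, the 104 transcripts between atrazine EC50 and the solvent control became 51 with only the 6 arrays in the fit, 36 with the methods' t-test, 65 with the slide as a fixed block, 209 without the deviating scan, 204 without that scan and with the slide as a random block, and 333 without that scan and EC50 replicate 2. Leaving out 1 of the 6 arrays gave 51 to 205. After adjustment, 0 became 3 without the deviating scan and with the slide as a fixed block, 165 without that scan and EC50 replicate 2, and 0 to 7 when 1 array was left out (7 without EC50 replicate 2, 1 without solvent replicate 3). For EC50 against EC10, 0 became 87 without the deviating scan, 40 with the 75th percentile and 14 after quantile normalization, and leaving out 1 array gave 0 to 143, against EC20 0 to 18 and against carbendazim EC50 0 to 2, each highest without EC50 replicate 2. For EC50 against EC10 with the slide as a fixed block, 0 stayed 0 and the 180 without adjustment became 47. The 15 transcripts of the interaction became 45 without the deviating scan. Arrays with the same replicate number did not deviate together (r of -0.108, -0.155 and -0.00179), so the numbers do not pair the samples, and the replicate block gave 0 transcripts after adjustment and 98 without. Of the 43 transcripts named by the rule and given a difference, 32 kept their sign in every alternative. Many of the 43 were chosen for a small p or a wide difference on these same arrays, so kept signs are no independent support. Of all 170 listed transcripts, 60 turned sign against the water control, among them EAC01116 (2.92). Among the 43 the sign reversed against the water control for EAC00415 (0.32), EAC01066 (2.76), EAC01049 (2.95), Ealb_Met_P7_A10_SP6_2090667 (-0.15), EAC00444 (-0.088), EAC01022 (0.011), EAC00421 (0.32) and EAC00284 (-0.15). It reversed with outlier spots kept for EAC00488 (-0.11), EAC00421 (0.0013) and EAC00284 (-0.24), with the 75th percentile for EAC00306 (0.049), EAC00421 (0.16) and EAC00636 (0.21), and with normexp for EAC00284 (-0.0445) and EAC00636 (0.041). Leaving out 1 array gave -0.23 to 0.017 for EAC00636. The causes were not tested. Transcripts not above background, 135 on all 6 arrays, and the 60 saturated on some array limit what their signals can show.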
